A study of Homo sapiens with 12 samples.

Results

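The interferon-stimulated genes described here are 56 human genes known as targets of interferon, picked by their symbols. All 56 were found among the 25680 gene symbols of the tables, and all 56 passed the filter on low counts. RNA was sequenced from MM.1S and U266, established human multiple myeloma lines, after 6 h with 6 µM IT848, which the labels call an NF-kB inhibitor, or with the solvent DMSO. The 4 groups were MM.1S with IT848, MM.1S with DMSO, U266 with IT848 and U266 with DMSO, with 3 libraries each and 12 in all. Each of MM.1S and U266 is 1 established line, all groups grew in RPMI with fetal bovine serum, and the labels name no added interferon. Separate cultures behind the 3 libraries of a group are not stated in the labels, so every p-value below measures only the spread between these libraries, which may be technical.

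As background, interferons bind receptors that activate the Janus kinases JAK1 and TYK2, which phosphorylate STAT2. STAT2 and IRF9 are subunits of ISGF3, a factor that binds the interferon-stimulated response element (ISRE) in the promoters of its targets. Interferon gamma acts through a different site, the gamma-activated sequence (GAS). Many of the targets block viruses, and several (IRF7, IRF9, STAT2, IFIH1 and DDX58) are themselves parts of the machinery that senses viral RNA or relays the signal. NF-kB, the factor family named as the target of IT848, takes part in switching on the interferon beta gene and some interferon-stimulated genes.

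The levels are in CPM, the counts of a gene summed over its transcripts and scaled to the library total by the TMM method. Library totals were 50627690 to 72039748 transcript counts, or 22887470 to 32913398 with 1 transcript per gene. All 8 plasma cell identity genes checked were detected in every group. With IT848, SDC1, PRDM1, XBP1, IRF4 and CD38 fell in both lines, TNFRSF17 rose in MM.1S and fell in U266, SLAMF7 rose in both and MZB1 was not called in either. SDC1, the surface marker CD138, averaged 318 CPM in MM.1S with IT848 and 655 CPM in MM.1S with DMSO, and 734 CPM in U266 with IT848 and 1067 CPM in U266 with DMSO, while SLAMF7 averaged 3755 CPM in MM.1S with IT848 and 2796 CPM in MM.1S with DMSO. The part of these changes in the results on the members was not tested. The summed level of the 8 genes was 6145 to 6361 CPM in MM.1S with IT848, 6402 to 6458 CPM in MM.1S with DMSO, 2684 to 2777 CPM in U266 with IT848 and 3112 to 3290 CPM in U266 with DMSO. The summed level of 6 T and NK cell markers stayed between 1.06 and 2.43 CPM in every library. That of 6 myeloid and plasmacytoid dendritic cell markers stayed between 0.477 and 4.80 CPM. Of these 6, LYZ, CLEC4C and FCGR1A were at 0 counts in at least 1 group, while CD14 and CSF1R were detected in every library. CSF1R had 2.23 to 3.94 CPM in U266 and 0.211 to 0.359 CPM in MM.1S. Of the libraries, 2 carried reads that are otherwise typical of the other line. In U266 IT848 replicate 1, all 16 genes used as marks of MM.1S were detected, at 0.903% of their MM.1S level, against 0.0920% and 0.0932% in the other IT848 libraries and 0.0439% to 0.0523% in U266 with DMSO. In MM.1S DMSO replicate 2, all 42 genes used as marks of U266 were detected, at 0.403% of their U266 level, against 0.0371% to 0.0692% in the other MM.1S libraries. The marks were picked for being near 0 in U266 with DMSO or in MM.1S with IT848, which sets the low shares of those groups. A share of this size matters for members that are far higher in the other line, and results of several such members are given below with and without these libraries.

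The promoters of the members were searched for the ISRE, taken as GAAA, any 2 bases and GAAA, because it is the element after which the response is named. RefSeq promoters (build GRCh38.p14, 250 bases before to 50 bases after the annotated start) were found for 46 of the 56 members, and 29 of the 46 (63.0%) held at least 1 match on either strand, against 3.57% of all 35116 promoters of that length. The stretches below, each read 5′ to 3′ on the strand of its gene, are shown for the members with the largest rises in MM.1S that have a match upstream of the start (IFI44L and IFI44), for ISG15 and BST2, and for the members with the largest falls (GBP1 and OAS3). Capitals mark the ISRE matches, and capitals that begin with TTTC are matches on the opposite strand.
IFI44L (chr1:78620264-78620394, plus strand): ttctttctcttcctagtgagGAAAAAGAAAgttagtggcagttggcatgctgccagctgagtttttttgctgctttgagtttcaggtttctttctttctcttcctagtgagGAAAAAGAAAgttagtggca
IFI44 (chr1:78649751-78649788, plus strand): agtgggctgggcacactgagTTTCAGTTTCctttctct
ISG15 (chr1:1013364-1013409, plus strand): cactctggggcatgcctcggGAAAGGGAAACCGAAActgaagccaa
BST2 (chr19:17405735-17405780, minus strand): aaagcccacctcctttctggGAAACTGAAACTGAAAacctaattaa
OAS3 (chr12:112938311-112938473, plus strand): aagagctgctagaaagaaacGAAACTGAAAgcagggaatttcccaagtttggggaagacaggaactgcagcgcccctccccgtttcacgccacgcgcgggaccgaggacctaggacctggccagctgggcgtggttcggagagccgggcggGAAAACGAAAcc
GBP1 (chr1:89065316-89065355, minus strand): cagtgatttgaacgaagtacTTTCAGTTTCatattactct

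IFI44L holds its 2 matches in an identical stretch that occurs at both ends of the window, while in ISG15 and BST2 the 2 matches overlap and share 4 letters. OAS3 and GBP1, which fell in MM.1S, hold the motif as do IFI44L and ISG15, which rose. Of 29 members with an ISRE match, 16 rose and 4 fell with IT848 in MM.1S (median log2 fold change 0.29), and of 17 without, 9 rose and 4 fell (median 0.26). Of all genes tested, 18.7% rose and 19.6% fell in MM.1S. A GAS match, written TTCNNNGAA, was found in 11 of the 46 promoters (23.9%), against 7.66% of all promoters, and in 4 members (IFITM1, BST2, IFI27 and EPSTI1) it shared bases with an ISRE match. Of the forms of the NF-kB site, only GGG, any 3 bases and TTCC was searched, so sites of other forms were missed. A match to this form was found in 4 of the 46 (8.70%: DDX58, IFIH1, OAS3 and BST2), against 6.52% of all promoters. These are matches of letters in a fixed window and no measurement of binding, and all were searched on both strands. The 10 members without a promoter in the table are IRF7, DHX58, OAS2, OASL, IFIT2, IFITM2, MX2, UBA7, USP18 and TRIM22.

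**Figure D1:**
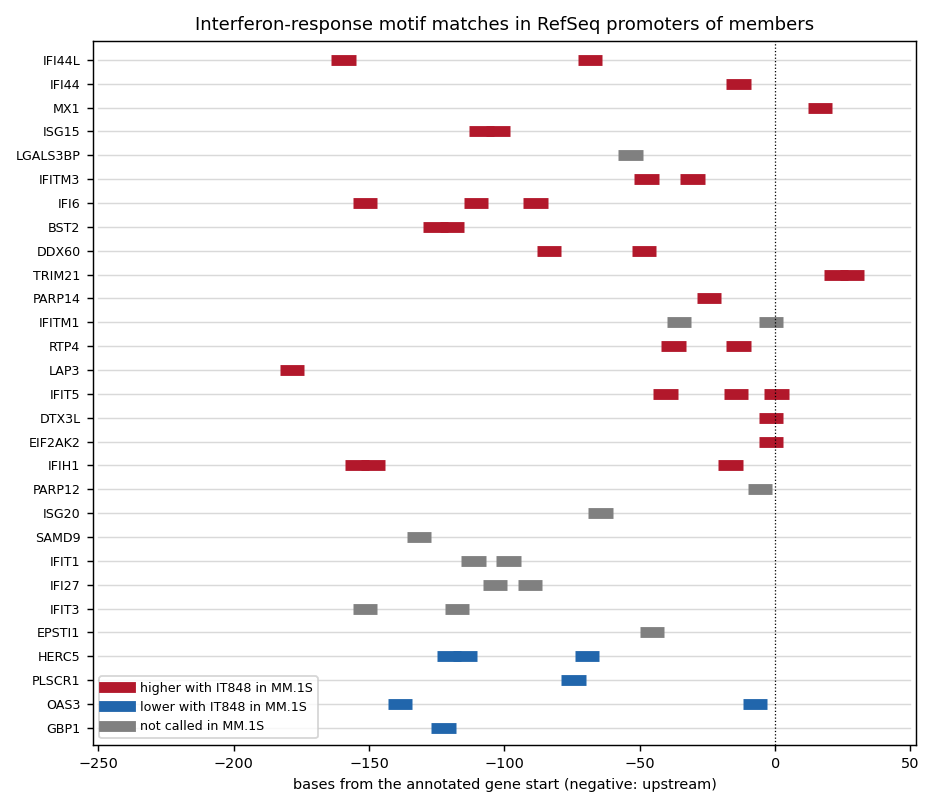
Positions of ISRE matches in the promoters of the 29 members that hold at least 1, in bases from the annotated start (dotted line; negative is upstream), ordered by the log2 fold change with IT848 in MM.1S; bars are 10-letter matches, coloured by the call in MM.1S. Members that rose, members that fell (HERC5, PLSCR1, OAS3 and GBP1) and members not called all hold matches, and 46 of the 49 matches begin upstream of the start.

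With IT848, MM.1S cells had higher levels of 28 of the 56 members (50%) and lower levels of 8 (14.3%), while 20 did not pass the test; of all 16782 genes tested, 18.7% were called higher, 19.6% lower and 38.3% in either direction. A call is an adjusted p below 0.05 in edgeR's quasi-likelihood F test over all genes tested. The median log2 fold change of the members was 0.29, against −0.01 for all genes. The rise exceeded 2-fold for 8 members (IFI44L, IFI44, MX1, CMPK2, RSAD2, OASL, XAF1 and ISG15) and for 279 of all genes, and no member fell by 2-fold or more. The 8 that fell were GBP1, OAS3, IRF1, PLSCR1, TRIM25, ADAR, HERC5 and OAS1. As these are bulk samples, fewer cells expressing a gene and less RNA per cell cannot be told apart. Leaving out both libraries with reads of the other line gave 24 higher and 7 lower. The correlation over genes of transcript length with the deviation of a library from the mean also moved with treatment in MM.1S, at −0.466 to 0.0332 with IT848 and 0.157 to 0.427 with DMSO (Spearman), and with that trend taken out 28 members were higher and 9 lower. Single values moved more than the counts: with the trend taken out ISG15 had a log2 fold change of 0.74 (under 2-fold), BST2 0.63 and IFI6 0.59, all still called.

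**Figure D2:**
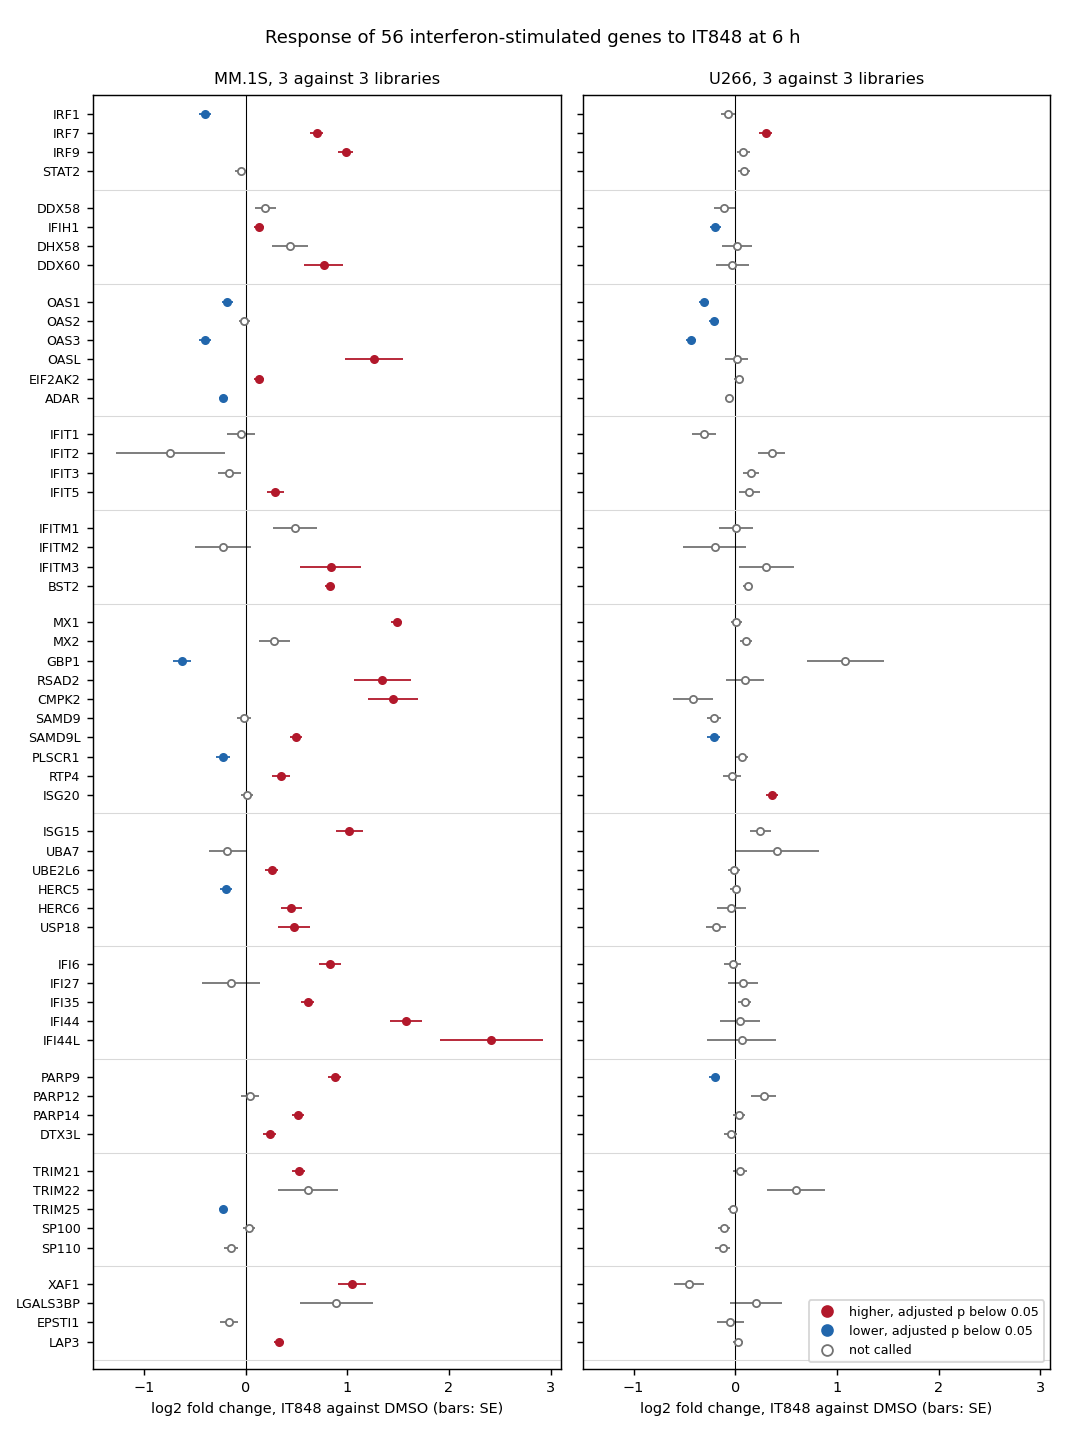
Log2 fold change, IT848 against DMSO, of all 56 members in MM.1S (left panel) and U266 (right panel), with bars for the SE; members are grouped by role from transcription factors at the top, and filled points passed the test (adjusted p below 0.05). In MM.1S 28 members lie to the right of 0 as filled points and 8 to the left, while in U266 most points are open and close to 0.

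The transcription factors of the pathway moved in different directions in MM.1S. IRF9, the DNA-binding subunit of ISGF3, had 12.1, 12.8 and 11.6 CPM in MM.1S with IT848, against 6.03, 6.53 and 5.93 CPM in MM.1S with DMSO, a 1.98-fold rise (log2 0.98 ± 0.08 SE). IRF7, which drives the interferon alpha genes, had 60.0, 55.0 and 53.8 CPM with IT848, against 35.0, 33.6 and 35.3 CPM with DMSO (log2 0.70 ± 0.06). In both genes every treated library was above every DMSO library. IRF1, a factor induced mainly by interferon gamma and also by NF-kB, had 44.8, 43.3 and 40.4 CPM with IT848, against 56.01, 57.2 and 55.8 CPM with DMSO, and fell by 0.40 ± 0.06 on the log2 scale, with no overlap between the groups. STAT2, a subunit of ISGF3, had 174, 168 and 162 CPM with IT848, against 187, 175 and 158 CPM with DMSO, and the groups overlapped (log2 −0.04 ± 0.06, adjusted p 0.570 in edgeR).

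Among the sensors of viral RNA, 2 of 4 (50%) rose in MM.1S, against 18.7% of all genes. DDX60, a helicase that assists RIG-I-like receptors, had a log2 fold change of 0.77 ± 0.19, and IFIH1, which encodes the sensor MDA5, one of 0.13 ± 0.05. IFIH1 is a small change at the edge of the test (adjusted p 0.0477 in edgeR), and its call was lost in 4 of 6 fits without 1 library, with values of 0.12 to 0.14. DDX58, which encodes RIG-I, and DHX58, which encodes LGP2, had values of 0.19 ± 0.10 and 0.44 ± 0.18 and were not called.

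The oligoadenylate synthetases, which make the messenger that activates RNase L, did not move together. OAS3 had 8.36, 9.45 and 8.29 CPM in MM.1S with IT848, against 11.5, 11.7 and 11.2 CPM in MM.1S with DMSO, and fell by 0.40 ± 0.06 on the log2 scale. OAS1 had 34.8, 33.3 and 32.0 CPM with IT848, against 37.6, 35.1 and 40.9 CPM with DMSO, and fell by 0.18 ± 0.05. OAS2 had 45.7, 43.2 and 39.5 CPM with IT848, against 43.9, 43.0 and 42.5 CPM with DMSO, with overlapping groups and no call. OASL, a related protein without synthetase activity that enhances RIG-I signalling, went the opposite way from OAS3 and OAS1. It had 0.477, 0.839 and 0.968 CPM with IT848, against 0.296, 0.396 and 0.263 CPM with DMSO, a rise of 1.27 ± 0.28 on the log2 scale that rests on 27 to 51 counts per treated library and 15 to 21 per DMSO library. Of the DMSO values of OAS3 and OASL in replicate 2, U266 reads at the measured share would make up 6.90% and 13.9%, and without both libraries with such reads the log2 fold changes were −0.38 and 1.43, with both calls kept. EIF2AK2, the RNA-dependent kinase PKR, had a log2 fold change of 0.13 ± 0.05 and ADAR, the RNA editing enzyme, one of −0.22 ± 0.04. The call of EIF2AK2 was lost in 4 of 6 fits without 1 library, at 0.11 to 0.13.

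Of the 4 IFIT genes, whose proteins bind viral RNA, 1 (25%) was called in MM.1S, against 38.3% of all genes in either direction. IFIT5 rose by 0.29 ± 0.08 on the log2 scale, and IFIT1, IFIT2 and IFIT3 had values of −0.04 ± 0.14, −0.74 ± 0.54 and −0.16 ± 0.11 and were not called. IFIT2 had only 4 or 5 counts per library with IT848 and 2 to 12 with DMSO, so a change of it was hardly detectable at this depth. All 4 overlap the span of the gene LIPA in the GRCh38.p14 annotation, while the counts were made on hg19, and shared exons were not checked. The strand setting of the counting is not given in the sources used here, so their counts may hold reads of LIPA.

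BST2, which encodes tetherin, a membrane protein that holds budding virus at the cell surface and is a surface antigen of myeloma cells, had 183, 197 and 204 CPM in MM.1S with IT848, against 108, 108 and 112 CPM in MM.1S with DMSO. Its groups were far apart (log2 0.83 ± 0.04). Of the IFITM genes, which block viral entry, IFITM3 rose by 0.84 ± 0.30, a call that was lost in 4 of 6 fits without 1 library (0.64 to 0.85) and with the length trend taken out (0.55, adjusted p 0.151 in edgeR), and IFITM1 and IFITM2 were not called (0.49 ± 0.21 and −0.22 ± 0.28). The 3 IFITM genes are near-identical copies at under 1 CPM in MM.1S, and reads may have been split between them.

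MX1, an antiviral GTPase, had the rise with the smallest SE relative to its size among the members over 2-fold. It had 69.2, 68.5 and 68.0 CPM in MM.1S with IT848, against 24.8, 23.9 and 24.8 CPM in MM.1S with DMSO, a 2.80-fold difference (log2 1.49 ± 0.06, adjusted p 1.7e-10 in edgeR). MX2, its paralog, had 0.599 to 0.816 CPM with IT848, against 0.562 to 0.613 CPM with DMSO, and was not called (log2 0.28 ± 0.15). RSAD2, which encodes viperin, had 0.442, 0.496 and 0.493 CPM with IT848, against 0.127, 0.237 and 0.211 CPM with DMSO (log2 1.35 ± 0.28). CMPK2, a mitochondrial nucleotide kinase whose gene neighbours RSAD2, had 1.84, 1.64 and 1.23 CPM with IT848, against 0.563, 0.475 and 0.685 CPM with DMSO (log2 1.45 ± 0.25). RSAD2 and CMPK2 have overlapping spans in the GRCh38.p14 annotation, so their counts may share reads and cannot be taken as independent of each other. Both rest on few counts, 25 to 29 against 9 to 12 for RSAD2 and 65 to 104 against 24 to 40 for CMPK2, yet in neither did the groups overlap.

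GBP1, an interferon gamma-induced GTPase, went the other way. It had 21.0, 20.9 and 22.4 CPM in MM.1S with IT848, against 32.1, 33.6 and 33.4 CPM in MM.1S with DMSO, and fell by 0.62 ± 0.09 on the log2 scale. PLSCR1, a phospholipid scramblase, had 10.04, 10.7 and 10.9 CPM with IT848, against 12.1, 12.5 and 12.4 CPM with DMSO (−0.22 ± 0.07). GBP1 belongs to a family of close copies, so its counts may hold reads of a relative. SAMD9L, an antiviral factor, rose by 0.50 ± 0.06 and RTP4 by 0.34 ± 0.09 (0.14 and not called with the length trend taken out, adjusted p 0.128 in edgeR), while SAMD9, the paralog of SAMD9L, and ISG20, an RNA exonuclease, were not called (−0.02 ± 0.07 and 0.01 ± 0.06).

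Of the genes that attach and remove ISG15, a ubiquitin-like protein, 4 of 6 rose in MM.1S and 1 fell. These shares were 66.7% and 16.7%, against 18.7% and 19.6% of all genes. ISG15 itself had 2.46, 3.32 and 2.77 CPM with IT848, against 1.20, 1.58 and 1.48 CPM with DMSO, a 2.03-fold rise (log2 1.02 ± 0.13). UBE2L6, its conjugating enzyme, rose by 0.26 ± 0.06, HERC6, a ligase-like protein, by 0.45 ± 0.11, and USP18, which removes ISG15 and dampens the interferon receptor, by 0.48 ± 0.16. HERC5, the ISG15 ligase in human cells, fell by 0.20 ± 0.06, and UBA7, its activating enzyme, was not called (−0.18 ± 0.18). Both USP18 and HERC5 were near the threshold: leaving out 1 library lost the call of USP18 in 5 of 6 cases (log2 0.43 to 0.49 there) and that of HERC5 in 2 of 6 (−0.16 to −0.15). Without both libraries with reads of the other line they were 0.50 and −0.19, about as large, with adjusted p-values of 0.0549 and 0.0565 in edgeR.

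The genes named IFI for interferon-inducible held the largest relative rises. IFI44L had 0.283, 0.394 and 0.342 CPM in MM.1S with IT848, against 0.0563, 0.0989 and 0.0351 CPM in MM.1S with DMSO, which are 16, 23 and 18 counts against 4, 5 and 2. The fitted log2 fold change of 2.42 ± 0.51 is thus imprecise, although the groups did not overlap. IFI44 had 3.34, 3.87 and 3.25 CPM with IT848, against 1.04, 1.25 and 1.23 CPM with DMSO (log2 1.58 ± 0.16), on 171 to 226 against 63 to 74 counts. IFI6, an inhibitor of apoptosis and of viral replication, rose by 0.83 ± 0.11 and IFI35 by 0.61 ± 0.06. IFI27 had a value of −0.14 ± 0.29 and was not called.

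PARP9 and its partner DTX3L, which together modify histones, both rose. PARP9 had 24.1, 22.01 and 23.4 CPM in MM.1S with IT848, against 12.4, 12.4 and 13.0 CPM in MM.1S with DMSO (log2 0.88 ± 0.06). DTX3L rose by 0.24 ± 0.06 and PARP14, a mono-ADP-ribosyltransferase, by 0.52 ± 0.06, while PARP12 was not called (0.05 ± 0.09). PARP9 and DTX3L lie head to head and have overlapping spans in the GRCh38.p14 annotation, so they may share reads.

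Among the TRIM ubiquitin ligases, TRIM21, an intracellular antibody receptor, rose by 0.52 ± 0.06, and TRIM25, which activates RIG-I, fell. TRIM25 had 117, 116 and 110 CPM with IT848, against 138, 134 and 128 CPM with DMSO (−0.22 ± 0.04). TRIM22 and the nuclear body genes SP100 and SP110 were not called (0.61 ± 0.29, 0.03 ± 0.06 and −0.15 ± 0.07). XAF1, a pro-apoptotic antagonist of the inhibitor of apoptosis XIAP, had 17.3, 18.7 and 16.2 CPM with IT848, against 9.90, 7.81 and 7.39 CPM with DMSO, a 2.07-fold rise (log2 1.05 ± 0.14). LAP3, an aminopeptidase, rose by 0.33 ± 0.05, and EPSTI1 and LGALS3BP were not called (−0.16 ± 0.09 and 0.89 ± 0.36).

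**Figure D3:**
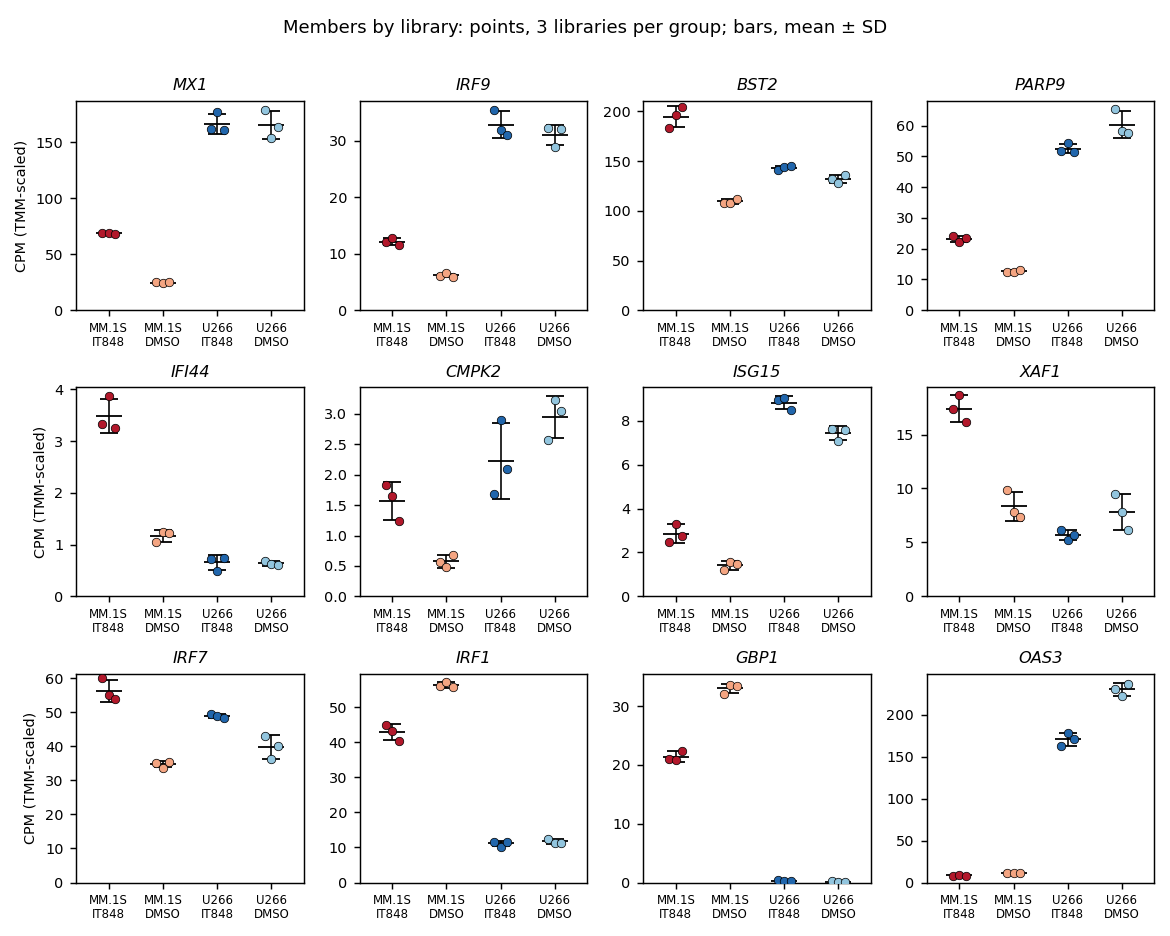
Level of 12 members in each library, in TMM-scaled CPM (linear axes from 0), for MM.1S with IT848, MM.1S with DMSO, U266 with IT848 and U266 with DMSO; points are libraries and bars the mean ± SD of 3. MX1, IRF9, BST2 and PARP9 are separated between IT848 and DMSO in MM.1S, while IRF1, GBP1 and OAS3 lie lower with IT848 in MM.1S.

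In U266, few members changed with IT848. ISG20 and IRF7 rose, and OAS3, OAS1, SAMD9L, OAS2, PARP9 and IFIH1 fell, so 2 of 56 members (3.57%) were higher and 6 (10.7%) lower, against 4.03% and 4.98% of all genes tested (9.01% in either direction). The median log2 fold change was 0.01 for the members and 0.01 for all genes, and no called change reached 2-fold in either direction. ISG20 had 24.4, 22.9 and 23.2 CPM in U266 with IT848, against 19.1, 17.5 and 18.4 CPM in U266 with DMSO (log2 0.36 ± 0.06). IRF7 had 49.5, 48.9 and 48.3 CPM with IT848, against 43.0, 36.2 and 40.0 CPM with DMSO (log2 0.30 ± 0.06), the only member called higher in both lines. In both genes the groups did not overlap.

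All 3 oligoadenylate synthetases fell in U266, where 4.98% of all genes fell. OAS3 had 163, 178 and 171 CPM in U266 with IT848, against 231, 222 and 237 CPM in U266 with DMSO, and fell by 0.43 ± 0.05 on the log2 scale, close to its fall of 0.40 ± 0.06 in MM.1S. OAS1 had 330, 345 and 348 CPM with IT848, against 430, 415 and 421 CPM with DMSO (−0.31 ± 0.05), and OAS2 had 190, 201 and 193 CPM, against 228, 220 and 226 CPM (−0.21 ± 0.05). All treated libraries were below all DMSO libraries for these 3 genes. SAMD9L had 59.8, 70.9 and 62.9 CPM with IT848, against 76.7, 72.5 and 75.2 CPM with DMSO (−0.21 ± 0.06), and PARP9 had 51.9, 54.2 and 51.3 CPM, against 65.2, 58.1 and 57.7 CPM (−0.20 ± 0.06). IFIH1 fell by 0.19 ± 0.05. These last 3 changes are small, and SAMD9L, PARP9 and IFIH1 rose in MM.1S.

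The number of members lower in U266 was sensitive to single libraries: it was 3 without U266 IT848 replicate 3, and 2 (OAS1 and OAS3) without both libraries with reads of the other line. IRF7, ISG20, OAS1 and OAS3 kept their calls under every alternative tried. The other factors had log2 fold changes in U266 of 0.08 ± 0.07 (IRF9), 0.09 ± 0.06 (STAT2) and −0.07 ± 0.07 (IRF1). IRF9 had 35.5, 32.0 and 31.1 CPM in U266 with IT848, against 32.2, 29.0 and 32.0 CPM in U266 with DMSO. STAT2 had 139, 141 and 136 CPM, against 136, 124 and 132 CPM, and IRF1 had 11.6, 10.2 and 11.6 CPM, against 12.5, 11.3 and 11.3 CPM. None of these 3 factors was called in U266. MX1, at 162, 176 and 161 CPM with IT848 and 179, 154 and 163 CPM with DMSO, overlapped fully between the groups (log2 0.01 ± 0.05).

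The responses of the 2 lines were then compared by the difference of their log2 fold changes, MM.1S minus U266, in the same model. This difference was positive for 24 members (42.9%) and negative for 5 (8.93%), against 8.49% and 8.94% of all genes (17.4% in either direction), with a median of 0.29, against −0.02 for all genes. The largest positive values were those of IFI44L (2.35 ± 0.62), CMPK2 (1.86 ± 0.31), IFI44 (1.53 ± 0.25), XAF1 (1.51 ± 0.20) and MX1 (1.48 ± 0.08). For IFI44L, U266 had 0.453, 0.860 and 0.443 CPM with IT848, against 0.670, 0.345 and 0.654 CPM with DMSO. For CMPK2, U266 had 1.68, 2.91 and 2.09 CPM with IT848, against 2.57, 3.23 and 3.05 CPM with DMSO. For XAF1, U266 had 6.17, 5.23 and 5.66 CPM with IT848, against 9.53, 7.80 and 6.14 CPM with DMSO. The U266 groups overlapped in all 3 genes. IFI44 in U266 was also without separation, at 0.721, 0.499 and 0.747 CPM with IT848, against 0.688, 0.624 and 0.607 CPM with DMSO. Without MM.1S DMSO replicate 1, the differences of IFI44L and RSAD2 were no longer called (adjusted p 0.0534 and 0.0741 in edgeR).

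PARP9, SAMD9L and IFIH1 were called in opposite directions in the 2 lines, and their differences of response were 1.08 ± 0.08, 0.71 ± 0.09 and 0.33 ± 0.07, and these differences, unlike the calls within U266, held under every alternative. The opposite directions themselves rest on calls in U266 that were lost in 4 (PARP9 and IFIH1) or 5 (SAMD9L) of 6 fits without 1 library. For IFIH1 the call in MM.1S was also lost in 4 of 6 such fits. The negative differences were those of GBP1 (−1.71 ± 0.39), ISG20 (−0.35 ± 0.08), IRF1 (−0.32 ± 0.09), PLSCR1 (−0.29 ± 0.09) and TRIM25 (−0.20 ± 0.06). ISG20 had 24.2, 24.01 and 25.7 CPM in MM.1S with IT848, against 23.4, 24.9 and 24.9 CPM in MM.1S with DMSO, with overlapping groups. PLSCR1 had 21.8, 25.1 and 22.9 CPM in U266 with IT848, against 22.8, 21.8 and 22.01 CPM in U266 with DMSO, and TRIM25 had 91.2, 95.1 and 91.8 CPM, against 95.7, 93.1 and 94.2 CPM. The U266 groups overlapped in both. GBP1 had 0.469, 0.275 and 0.207 CPM in U266 with IT848, against 0.235, 0.0657 and 0.144 CPM in U266 with DMSO, on 28, 16 and 15 counts against 13, 4 and 9. It was not called in U266 (log2 1.08 ± 0.38, adjusted p 0.0993 in edgeR), but was called with the replicate block (1.08, adjusted p 0.0335) and with the DESeq2 Wald test (1.08, adjusted p 0.0171). MM.1S reads at the measured share would make up 52.4% of its value in U266 IT848 replicate 1, and without that library the U266 value was 0.70 ± 0.37. Without both libraries with reads of the other line no negative difference was called in edgeR's test (7 members at an unadjusted p below 0.05), and GBP1 had −1.30 with an adjusted p of 0.0586. With all libraries DESeq2 called 5. The negative count also fell to 2 or 3 without any 1 of the 6 U266 libraries, MM.1S DMSO replicate 2 or MM.1S IT848 replicate 2, so it rests on small margins.

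The difference was not called for OAS3 (0.03 ± 0.08), OAS1 (0.12 ± 0.07) or OAS2 (0.20 ± 0.07). The adjusted p-values were 0.826, 0.261 and 0.0661 in edgeR, which does not show that these genes respond alike. For IRF9 it was 0.90 ± 0.10, for BST2 0.71 ± 0.06 and for ISG15 0.78 ± 0.17, all called and kept under every alternative. BST2 had 141, 144 and 145 CPM in U266 with IT848, against 132, 128 and 136 CPM in U266 with DMSO (log2 0.12 ± 0.04, not called). ISG15 had 8.96, 9.04 and 8.49 CPM, against 7.64, 7.08 and 7.60 CPM (0.25 ± 0.10, not called). In these 2 genes the U266 groups were apart, with smaller log2 fold changes than in MM.1S (0.83 for BST2 and 1.02 for ISG15 there).

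Under DMSO, the lines differed at 52 of the 56 members: 19 (33.9%) were higher and 33 (58.9%) lower in MM.1S than in U266, against 40.6% and 42.1% of all genes. In either direction 82.6% of all genes were called, so a call alone sets no member apart. The median difference of the members was −0.39 on the log2 scale, against −0.02 for all genes. By 2-fold or more, 22 members were lower in MM.1S and 8 higher. Of all 16782 genes tested, 3423 were higher by as much, so the 8 do not set the members apart. The number of all genes lower by as much was not counted, so the 22 cannot be read as an excess. The OAS, IFIT and MX genes stood mostly lower in MM.1S, and GBP1, UBA7, EPSTI1, PARP12 and IRF1 higher.

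**Figure D4:**
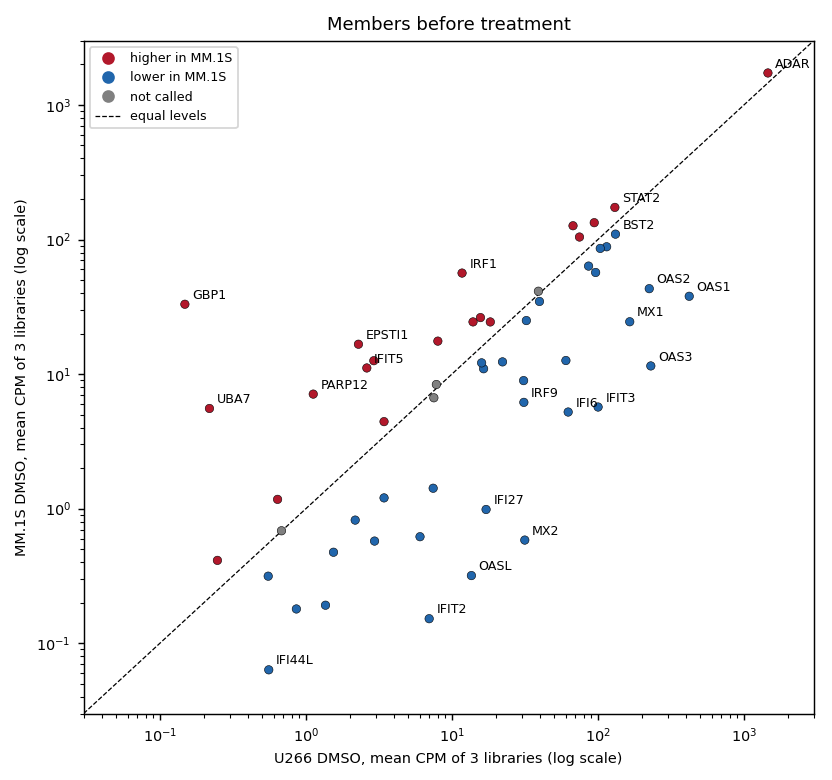
Mean CPM of 3 DMSO libraries of each member in MM.1S (vertical axis) against U266 (horizontal axis), both on log scales; colours give the call and the dashed line equal levels. GBP1 and UBA7 lie far above the line, and MX2, IFIT2, OASL, IFIT3 and OAS3 far below it.

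Among the members lower in MM.1S, MX2 had 0.578, 0.613 and 0.562 CPM in MM.1S with DMSO, against 32.4, 31.3 and 30.9 CPM in U266 with DMSO, a 53.9-fold difference (log2 −5.75 ± 0.09). IFIT2 had 0.0282, 0.218 and 0.211 CPM, against 6.92, 7.09 and 6.94 CPM (−5.61 ± 0.24), and OASL 0.296, 0.396 and 0.263 CPM, against 15.1, 12.03 and 13.6 CPM (−5.43 ± 0.19). IFIT3 had 5.83, 5.06 and 6.18 CPM, against 99.5, 97.0 and 104 CPM (−4.13 ± 0.10), and OAS3 11.5, 11.7 and 11.2 CPM, against 231, 222 and 237 CPM (−4.32 ± 0.06). U266 was thus higher in every library for these 5 antiviral effectors. In MM.1S DMSO replicate 2, U266 reads at the measured share would make up 21.5% of the MX2 value and 14.8% of the IFIT2 value, and without both libraries with such reads their differences were −5.79 and −5.97. For OASL, IFIT3 and OAS3 the shares were 13.9%, 8.44% and 6.90%, and the differences without both libraries −5.59, −4.07 and −4.34. Without MM.1S DMSO replicate 1 that of IFIT2 was −5.01. IRF9 was 5.05-fold lower in MM.1S (log2 −2.34 ± 0.07), and IRF7 was lower by a small amount (−0.20 ± 0.06).

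Among the members higher in MM.1S, GBP1 had 32.1, 33.6 and 33.4 CPM in MM.1S with DMSO, against 0.235, 0.0657 and 0.144 CPM in U266 with DMSO, a 224-fold difference (log2 7.81 ± 0.18). UBA7 had 6.49, 4.97 and 5.20 CPM, against 0.254, 0.0985 and 0.303 CPM (4.66 ± 0.27). The U266 values of both genes rest on 4 to 19 counts per library, which makes these folds imprecise. EPSTI1, a stromal interaction protein, had 17.0, 16.1 and 17.0 CPM, against 2.59, 2.36 and 1.92 CPM (2.87 ± 0.11). PARP12, an antiviral ADP-ribosyltransferase, had 7.03, 7.46 and 6.81 CPM, against 1.23, 1.05 and 1.08 CPM (2.66 ± 0.11), and IRF1 had 56.01, 57.2 and 55.8 CPM, against 12.5, 11.3 and 11.3 CPM (2.26 ± 0.06). STAT2 was also higher in MM.1S (0.41 ± 0.06). The 4 members not called were IFIH1, RTP4, XAF1 and TRIM22.

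The levels of treated MM.1S were also set beside those of U266 with DMSO. The members shown were picked by calls that used these same libraries, which helps set where they lie. This is thus a description and no test. Of the 19 members lower in MM.1S under DMSO that rose with IT848, 13 stayed below every U266 DMSO library. Among these 13, MX1 reached 41.5% of its U266 DMSO mean, IRF9 39.1%, ISG15 38.3%, PARP9 38.4% and OASL 5.60%. Others of the 13 came closer, with UBE2L6 at 70.6%, EIF2AK2 at 84.6% and DTX3L at 89.6%. Another 4 overlapped the U266 DMSO libraries, at 103% (IFITM3), 102% (IFI35), 92.2% (LAP3) and 61% (IFI44L) of that mean. IRF7 and BST2 stood at 141% and 148% of that mean, above all 3 U266 DMSO libraries.

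Levels of different genes can be compared only per length, for which the authors' FPKM of the most counted transcript of each gene was used. By FPKM, BST2 was the highest member in all 4 groups, at 187 ± 7.62 FPKM in MM.1S with IT848, 107 ± 1.42 FPKM in MM.1S with DMSO, 143 ± 1.44 FPKM in U266 with IT848 and 131 ± 4.62 FPKM in U266 with DMSO (SD, n = 3). ADAR was the second in MM.1S, at 43.8 ± 3.73 FPKM with IT848 and 51.5 ± 1.52 FPKM with DMSO. OAS1 was the second in U266, at 72.3 ± 1.40 FPKM with IT848 and 89.5 ± 1.97 FPKM with DMSO. At least 1 FPKM was reached by 38 members in MM.1S with IT848, 35 in MM.1S with DMSO, 39 in U266 with IT848 and 39 in U266 with DMSO. The large relative rises of IFI44L, CMPK2, RSAD2 and OASL in MM.1S thus took place at the low end, since each of them averaged between 0.0567 and 0.172 FPKM in MM.1S with IT848, whereas BST2 and IRF9, at 187 and 7.11 FPKM, were well expressed.

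The rest of the pathway was described by 4 further lists. Of 21 interferon genes in the tables, 8 had no count in any library, the other 12 apart from IFNG had at most 6 counts in any library, and IFNG had 3 to 27 counts and was not called in either line. A count of 3 corresponds to 0.0415 to 0.0593 CPM, so interferon transcripts other than IFNG were at or near the limit of detection in every group. Of 10 genes of the interferon receptors and their signalling, 3 rose (30%) and 4 fell (40%) in MM.1S, against 18.7% and 19.6% of all genes. In U266 2 of these 10 fell (20%), against 4.98% of all genes.

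Of 7 inhibitors of interferon signalling, 1 rose in MM.1S (18.7% of all genes did), and 1 rose and 2 fell in U266 (4.03% and 4.98% of all genes). SOCS1, which blocks the Janus kinases and is itself an interferon target, had 0.721, 0.722 and 0.844 CPM in U266 with IT848, against 0.344, 0.230 and 0.479 CPM in U266 with DMSO (log2 1.11 ± 0.25, adjusted p 0.0101 in edgeR). In MM.1S it had 0.778, 0.907 and 0.816 CPM with IT848, against 1.13, 0.9496 and 1.04 CPM with DMSO, and was not called (−0.32 ± 0.22). The difference of the responses, −1.43 ± 0.33, was called. Of 16 genes of the pathways that induce interferon, 1 rose and 2 fell in MM.1S, which are lower shares than the 18.7% and 19.6% of all genes, and 1 fell in U266, against 4.98% of all genes. TBK1, the kinase that activates IRF3 and IRF7, had 46.0, 44.8 and 44.6 CPM in MM.1S with IT848, against 31.1, 31.0 and 33.4 CPM in MM.1S with DMSO (log2 0.50 ± 0.06).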

How the data were processed

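RNA of 12 libraries was sequenced as paired reads, per the labels' protocols. The submitters' processing notes name hg19, STAR 2.5.2b, Subread 1.5.2 with featureCounts, Trimmomatic 0.36 and bcl2fastq. The strand setting is not given in the sources used here, nor is the handling of reads with several alignments. The deposited counts are reads the authors assigned to each of 51780 transcripts, and the deposited FPKM is scaled by the authors to transcript length and library total. Transcripts that share exons share reads in these counts, so a sum over transcripts repeats reads, and CPM of different genes are not on a common scale. The members and all lists, and the 2 libraries with reads of the other line, were chosen with earlier results of these data known.

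Counts were summed per symbol (33 members had 1 transcript, 23 had several, up to 10) and tested with edgeR 4.0.16 in R 4.3.3: default filter with a minimum count of 10 (16782 genes left), TMM scaling, robust quasi-likelihood F test, a mean per group over all 12 libraries, Benjamini-Hochberg adjustment over all genes, and a call at 0.05. Errors of log2 fold changes are SE and those of levels SD. The script was tested on simulated data. Named with values in every library of the groups compared were the 4 factors, the called members with the 8 largest rises and 5 largest falls in each treatment comparison, the 5 largest differences each way between the lines and between the responses, and pathway genes called with a log2 fold change of at least 0.5; others were given in addition. Marks of a line were genes with at least 20 CPM in all libraries of that line and at most 10 counts summed over U266 with DMSO (for MM.1S marks) or MM.1S with IT848 (for U266 marks). Alternatives were DESeq2 1.42.0 (size factors or Wald test), no filter, each library left out, both libraries with reads of the other line left out, the most counted transcript, a correction of the trend with transcript length, a replicate block, and a fit of only the groups compared. Reads carry no molecular identifiers, so floors cover counting error only. The values of 1 pathway gene are not reported here.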

Additional observations from a re-analysis of the deposited data

Results flagged for a closer look

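The responses of the 2 lines differed by the test of the difference itself (edgeR, adjusted p below 0.05, 3 libraries a group) for 29 members. These are log2 differences, the response in MM.1S minus that in U266. Among the factors and sensors they were −0.32 (IRF1), 0.40 (IRF7), 0.90 (IRF9), 0.33 (IFIH1) and 0.80 (DDX60). Among the antiviral effectors they were 1.25 (OASL), 0.71 (BST2), 1.48 (MX1), −1.71 (GBP1), 1.25 (RSAD2), 1.86 (CMPK2), 0.71 (SAMD9L), −0.29 (PLSCR1), 0.38 (RTP4) and −0.35 (ISG20). In the ISG15 system they were 0.78 (ISG15), 0.27 (UBE2L6) and 0.66 (USP18). Among the IFI genes they were 0.86 (IFI6), 0.52 (IFI35), 1.53 (IFI44) and 2.35 (IFI44L). For the remaining members they were 1.08 (PARP9), 0.48 (PARP14), 0.28 (DTX3L), 0.47 (TRIM21), −0.20 (TRIM25), 1.51 (XAF1) and 0.30 (LAP3). Of the 29, 16 kept their call under every alternative, all of them positive. The 13 that lost it in at least 1 were IRF1, DDX60, OASL, GBP1, RSAD2, PLSCR1, RTP4, ISG20, UBE2L6, USP18, IFI44L, DTX3L and TRIM25. Of 12 fits without 1 library, the call was lost in 11 for RTP4, 10 for PLSCR1 and TRIM25, 8 for DDX60 and DTX3L, 7 for UBE2L6, 5 for IRF1, 3 for USP18 and 1 for IFI44L and RSAD2. Each group has 3 libraries, too few for the test of a single library far from the others.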

How the results depend on the processing

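In MM.1S, 24 to 29 members were higher and 6 to 9 lower under the alternatives run, and 28 of the 36 calls (23 higher, 5 lower) held in all of them; IFIH1, OAS1, EIF2AK2, IFITM3, PLSCR1, RTP4, HERC5 and USP18 lost theirs in at least 1. STAT2, not called, had a log2 fold change of 0.0268 with the length trend taken out and of −0.107 to 0.0158 with 1 library left out, positive without MM.1S DMSO replicate 1. In U266 the count of higher members was 4 with the DESeq2 Wald test, 4 with the replicate block and 5 with only the 2 groups compared, and the count of lower members was 2 without both libraries with reads of the other line and 3 to 5 with 1 library left out. For the difference of responses 17 to 26 were positive, while the negative count was 3 without the low-count filter, 0 without both those libraries and 2 to 5 with 1 library left out; the cause was not tested. Of the 52 differences between the lines under DMSO, 50 held in every alternative, all but IFITM2 and IFITM3. Same-numbered libraries deviated together by correlations of −0.05 to 0.11, and differently numbered ones by −0.12 to 0.05. Values this weak, over groups of 3 libraries, cannot decide whether the numbers pair the libraries. With the replicate block, 27 were higher and 8 lower in MM.1S, 4 and 8 in U266, 26 and 7 for the difference of responses, and 19 and 33 between the lines. The fit of only the compared groups was not run for the difference of responses. IFIT2, IFI44L, RSAD2 and GBP1 in U266 are limited by depth.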
